A study of Mus musculus with 3 samples.

Results

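The genes described here serve the oxidation of fatty acids in mitochondria and peroxisomes and the making of peroxisomes. They were taken by symbol from the array's annotation, namely every probe set with a single gene symbol that starts with Acad, Hadh, Cpt1, Cpt2, Acsl, Acsm, Acot, Acox, Ech, Eci or Fabp, or with Pex and a digit, or that is Acaa1a, Acaa1b, Acaa2, Crat, Decr1, Decr2, Ehhadh or Cd36. The rule took 82 of 35557 probe sets and 79 of 19938 genes, and it used no measured value. It and the gene lists below were, however, set with earlier results of these data known. The samples were cells carrying yellow fluorescent protein, sorted from the digested kidney cortex of adult male Ren1c-YFP mice of unspecified strain, in which the renin promoter marks the renin-producing juxtaglomerular cells. For 2 weeks every mouse ate low-salt chow and drank water with 0.5 mg/ml captopril, an inhibitor of angiotensin-converting enzyme. There was 1 group of 3 samples, replicates 2, 4 and 5, each amplified and hybridised to a single-colour Affymetrix array. With no control group, the values are levels in sorted samples and not effects of the treatment. Samples were not pooled, per the labels, which do not say whether each came from its own animal, so the p-values cover only the spread between these 3 samples, which may be technical.

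Fatty acids enter cells through carriers such as CD36, are held in the cytosol by fatty acid binding proteins and are activated to acyl-CoA by synthetases. The carnitine shuttle takes long chains into mitochondria, where rounds of dehydrogenation, hydration, a second dehydrogenation and thiolysis release acetyl-CoA. Peroxisomes shorten very long and branched chains with their own enzymes, and proteins called peroxins build the organelle and import its enzymes. In kidney this pathway is best known from the proximal tubule, whose transport work is fuelled mainly by fatty acids. Many of its genes are targets of the receptor PPAR alpha.

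A signal is the deposited log2 value of a probe set, and background is the level under which 95% of 1027 olfactory receptor genes lay on the same array, namely 6.20, 6.32 and 6.50 in replicates 2, 4 and 5. A gene was called above background when limma's one-sided test of signal minus that level, over the 3 arrays, had a Benjamini-Hochberg adjusted p under 0.05. By this test 47 of the 79 members (59.5%) were above background, beside 7437 of all 19938 genes (37.3%). The members' median stood 0.85 log2 units above the level, and that of all genes at -0.01. Of the members, 46 were above the level on every array, 16 on some arrays and 17 on none, while 41.9% of all genes were above it on every array. The calls included 3 of 4 carnitine acyltransferases, 6 of 10 acyl-CoA dehydrogenases, 8 of 10 genes listed with the later mitochondrial steps, 8 of 10 peroxisomal enzymes and 7 of 14 peroxins. Probe affinity also sets a signal, so the heights below are read against background and do not rank the genes by abundance.

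The count rested on the level chosen. With the 99th percentile of olfactory receptor genes it was 23 of 79 (29.1%, beside 16.6% of all genes), and with the 95th percentile of vomeronasal receptor genes 66 (83.5%, beside 67.3%). With the level of keratin-associated protein genes, the highest of the levels tried, 3 members remained, Acadm, Acsm2 and Decr1, and their share (3.80%) was near that of all genes (3.56%). Leaving out replicate 2, 4 or 5 gave 43, 45 and 51 members, beside 30.3%, 32.1% and 39.2% of all genes. With the mean of a gene's probe sets or quantile normalization it was 47, beside 37.1% and 37.7%. With genes under the median gene removed it was 47 of the 56 members left (83.9%), beside 79.6% of all genes left.

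**Figure D1:**
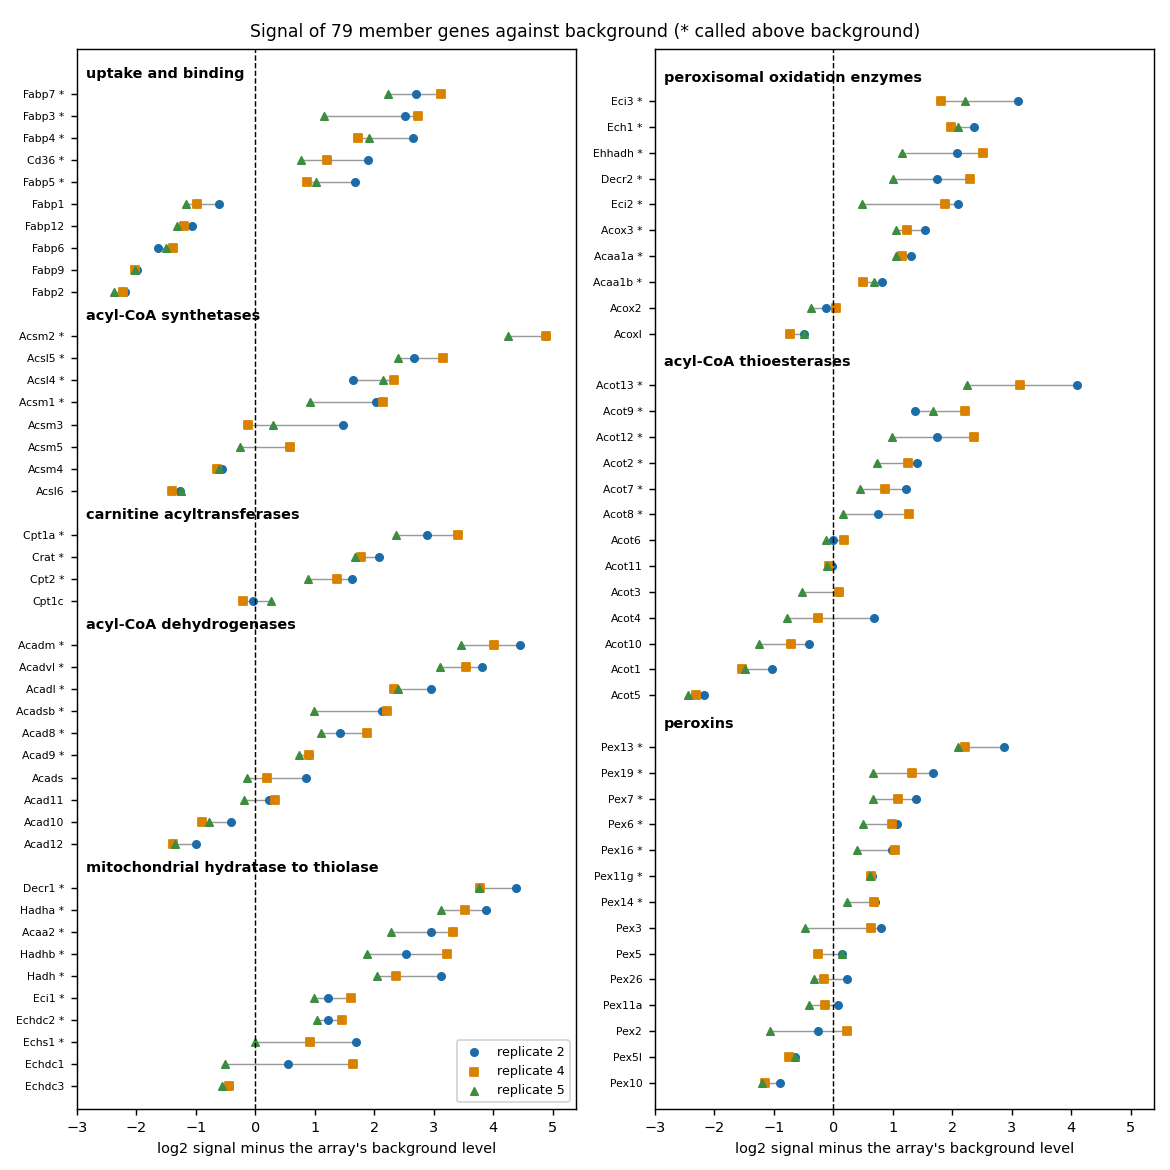
Each row is 1 of the 79 genes, grouped by role, and the x axis gives its log2 signal minus the background level of the array (dashed line at 0) in replicate 2 (circles), 4 (squares) and 5 (triangles), with a grey line over their range. An asterisk marks the 47 genes called above background. Green triangles often lie leftmost. Replicate 5 had the highest background level subtracted (6.50, beside 6.20 and 6.32 in replicates 2 and 4). It also had the lowest deposited signal of the 3 arrays in 30 of the 47, a count of signals and not of the plotted heights.

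The sorted samples also carried transcripts of kidney tubules, among them those of the proximal tubule. All 9 measured renin cell markers and all 14 smooth muscle and pericyte markers were above background, with linear signals that summed to 12674 to 15933 and 22920 to 28350 per array, and renin's own transcript was not analysed here. All 17 measured proximal tubule markers were called too (summed signal 26990 to 36955). The sums pool different probes over lists of different length and are compared only between arrays. Thick ascending limb and distal markers were called in 9 of 11 cases (summed signal 12520 to 17711) and endothelial ones in 9 of 14 (summed signal 1903 to 4456). Of 8 adipocyte markers Slc2a4 alone was called (summed signal 473 to 636), with the defining genes Adipoq at 4.02, 3.98 and 4.14 and Cidec at 5.37, 5.16 and 5.36 under the level. Of 12 macrophage markers Cx3cr1 and Tyrobp were called (summed signal 776 to 942). Which cells of a sample the members' transcripts came from was not tested, and in these bulk samples fewer cells of a type and less RNA per cell cannot be told apart.

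The acyl-CoA dehydrogenases, which open each mitochondrial round, were above background in 6 of 10 cases (60%, beside 37.3% of all genes). Acadm, the medium-chain enzyme, had log2 signals of 10.66, 10.34 and 9.96 in replicates 2, 4 and 5, a mean of 10.32 ± 0.35 (mean ± SD, n = 3 here and below) and a height of 3.98 (SE 0.27) above background (limma adjusted p = 6.64e-06). Acadvl, the very long-chain enzyme of the inner membrane, stood at 10.02, 9.86 and 9.61, 3.49 above background (limma adjusted p = 1.05e-05), and Acadl, the long-chain enzyme, at 9.17, 8.65 and 8.91 with a height of 2.57. All 3 genes were more than 2 log2 units above the level on every array. Acadsb, which handles short branched chains, had signals of 8.34, 8.53 and 7.50 and was lowest in replicate 5. Acad8, an enzyme of valine breakdown, and Acad9, which also helps to assemble respiratory complex I, had means of 7.81 ± 0.33 and 7.19 ± 0.07. Acads, the short-chain enzyme, was above the level in replicates 2 and 4 but not in 5 (7.05, 6.52 and 6.37), and was not called (limma adjusted p = 0.204), though it was without replicate 5 (limma adjusted p = 0.0489). Acad11 (6.47 ± 0.16) was not called, and Acad10 (5.65 ± 0.20) and Acad12 (5.20, 4.93 and 5.16) were under the level on every array.

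Genes listed with the later steps of the mitochondrial round were above background in 8 of 10 cases (80%, beside 37.3% of all genes). The list also held Echdc1, Echdc2 and Echdc3, which the rule took by their symbols. Echdc1 and Echdc3 were the genes not called. Decr1, the reductase needed for unsaturated chains, had signals of 10.60, 10.09 and 10.26, a height of 3.97 (SE 0.25) (limma adjusted p = 4.48e-06). Hadha and Hadhb encode the alpha and beta subunits of the trifunctional protein, which carries out hydration, dehydrogenation and thiolysis of long chains. Hadha stood at 10.09, 9.85 and 9.62 and Hadhb at 8.73, 9.54 and 8.38, with heights of 3.51 and 2.54 (limma adjusted p = 1.08e-05 and 0.000145). Hadha was highest in replicate 2, and Hadhb in replicate 4, by 0.98 over the mean of the rest. The other probe set of Hadhb, at 8.62, 9.35 and 8.21, was also highest in replicate 4. Acaa2, the mitochondrial thiolase, had signals of 9.17, 9.64 and 8.79, and Hadh, the dehydrogenase for shorter chains, of 9.32, 8.69 and 8.55. Both were lowest in replicate 5, while replicate 4 was highest for Acaa2 and replicate 2 for Hadh. Eci1, an isomerase for unsaturated chains, and Echdc2, a protein with a hydratase domain, had means of 7.62 ± 0.27 and 7.58 ± 0.18.

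Echs1, the short-chain hydratase, spanned a wide range, with 7.90, 7.24 and 6.50 in replicates 2, 4 and 5. It reached the level in replicates 2 and 4 and lay just under it in 5. Its call (limma adjusted p = 0.0296) was lost without replicate 2 (limma adjusted p = 0.183) and with a variance model without trend (limma adjusted p = 0.0548). Echdc1, a decarboxylase that clears ethylmalonyl-CoA, had the widest spread between arrays of the 79 members (SD 0.99), with signals of 6.76, 7.97 and 6.002. It was not called (limma adjusted p = 0.171), and was without replicate 5 (limma adjusted p = 0.00694). Echdc3 (5.76, 5.88 and 5.94) was under the level on every array.

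Hadha and Hadhb are neighbours in the RefSeq annotation of GRCm38.p6 and are transcribed away from each other, with annotated starts 273 bases apart. The DNA between them is therefore upstream of both, and it is shown because the signals of these partner subunits peaked on different arrays. The 250 bases before the start of Hadhb, plus strand, with no capitals because neither motif searched for below was found in Hadhb's window, are as follows.
Hadhb upstream, chr5:30155003-30155252: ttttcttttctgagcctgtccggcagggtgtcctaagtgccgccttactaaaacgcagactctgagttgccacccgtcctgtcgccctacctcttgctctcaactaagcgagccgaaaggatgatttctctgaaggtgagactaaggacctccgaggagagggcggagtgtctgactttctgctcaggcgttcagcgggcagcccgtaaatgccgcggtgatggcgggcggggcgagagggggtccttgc

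The carnitine acyltransferases were above background in 3 of 4 measured cases (75%, beside 37.3% of all genes). Cpt1b, the muscle form, was not analysed because its probe set carried several symbols. Cpt1a, the outer membrane enzyme that sets the rate of entry of long chains, had signals of 9.09, 9.72 and 8.87, 2.89 (SE 0.28) above background (limma adjusted p = 4.64e-05). It was highest in replicate 4, 0.74 above the mean of the other arrays. Crat, which acts on acetyl groups, stood at 8.29, 8.10 and 8.19, with a range of 0.19 between arrays. Cpt2, the inner membrane partner of Cpt1a, had signals of 7.83, 7.70 and 7.39 and a height of 1.30 (limma adjusted p = 0.00104). Cpt1c, a form known from brain, was above the level in replicate 5 alone (6.16, 6.11 and 6.78) and was not called (limma adjusted p = 0.979).

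Activating enzymes were called in 4 of 8 measured cases (50%, beside 37.3% of all genes), and Acsl1 and Acsl3 were not analysed here. Acsm2, a medium-chain synthetase, had signals of 11.10, 11.20 and 10.76, 4.68 (SE 0.23) above background (limma adjusted p = 1.27e-06). Acsm1, its close relative, stood at 8.23, 8.47 and 7.42 and was lowest in replicate 5. Acsl5 had signals of 8.86, 9.48 and 8.90, with replicate 4 highest. Acsl4, which prefers arachidonic acid, stood at 7.85, 8.66 and 8.66, lowest in replicate 2 by 0.81 log2 units against the mean of the others. Acsm3 spread from 6.20 in replicate 4 through 6.80 in 5 to 7.68 in 2. It was not called (limma adjusted p = 0.111), and passed without replicate 4 (limma adjusted p = 0.0186). Acsm5 (6.76, 6.90 and 6.25, limma adjusted p = 0.207) passed without replicate 5 (limma adjusted p = 0.0186). Acsm4 (5.74 ± 0.13) and Acsl6 (4.94, 4.92 and 5.26) were under the level on every array. The neighbouring genes Acsm5, Acsm2, Acsm1 and Acsm4 are similar in sequence, and whether a probe set also bound a relative's transcript was not tested.

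Among carriers and binding proteins 5 of 10 were called (50%, beside 37.3% of all genes). Fabp7, the form known from brain, had signals of 8.91, 9.45 and 8.74, a height of 2.69 (SE 0.27) (limma adjusted p = 5.44e-05). Fabp3, the heart form, stood at 8.72, 9.05 and 7.66 in its brighter probe set and at 9.11, 8.85 and 7.15 in the other. Both probe sets were lowest in replicate 5, by more than 1 log2 unit against either other array. Fabp4, the form of fat cells and capillary endothelium, had signals of 8.86, 8.05 and 8.42, and Cd36, the fatty acid carrier found in both of those cell types, of 8.09, 7.53 and 7.28. Fabp5, the epidermal form, stood at 7.88, 7.19 and 7.53 in the brighter probe set and at 7.39, 6.65 and 6.92 in the other. These 3 genes were highest in replicate 2, as were 43.8% of all called genes. So were the endothelial markers Pecam1 (9.03, 6.87 and 6.79) and Cdh5 (8.70, 7.08 and 6.59). Fabp4 and Fabp5 were lowest in replicate 4, whereas Cd36, Pecam1 and Cdh5 were lowest in replicate 5. In replicate 2, Fabp4, Fabp5 and Cd36 exceeded the mean of the other arrays by 0.63, 0.52 and 0.69, and Pecam1 and Cdh5 by 2.20 and 1.86. Of the 14 endothelial markers 12 were highest in replicate 2 and the other two, Ehd3 and Tek, were lowest there, and the part of endothelial cells in the result was not tested. The forms of liver, intestine, ileum and testis, Fabp1 (5.60, 5.34 and 5.33), Fabp2 (4.01, 4.09 and 4.12), Fabp6 (4.84 ± 0.24) and Fabp9 (4.33 ± 0.14), and Fabp12 (5.15 ± 0.04) were under the level on every array. In gene order Fabp4 lies between Fabp9 and Fabp12, and of these 3 neighbours it alone was called.

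Peroxisomal oxidation enzymes were above background in 8 of 10 measured cases (80%, beside 37.3% of all genes). Eci3, an isomerase closely related to Eci2, had signals of 9.31, 8.13 and 8.71, 2.38 (SE 0.30) above background (limma adjusted p = 0.000197). Ech1, a dienoyl-CoA isomerase, stood at 8.57, 8.31 and 8.59, and Ehhadh, the bifunctional hydratase and dehydrogenase, at 8.29, 8.84 and 7.65. Ehhadh was highest in replicate 4 and lowest in 5, while Ech1 varied little. Decr2, the peroxisomal dienoyl-CoA reductase, had signals of 7.94, 8.61 and 7.50, in the same order of arrays as Ehhadh. Eci2 stood at 8.30, 8.20 and 6.98, 1.27 lower in replicate 5 than the mean of the other arrays, the widest such gap among called members. Its neighbour Eci3 was instead lowest in replicate 4. Acox3, an oxidase for branched chains, and the peroxisomal thiolase Acaa1a had signals of 7.74, 7.56 and 7.55 and 7.50, 7.47 and 7.56. The other thiolase gene, Acaa1b (7.01, 6.81 and 7.19, limma adjusted p = 0.00802), did not pass with replicate 2 left out (limma adjusted p = 0.0513). Acaa1a and Acaa1b are near-identical copies, so their separate values are uncertain. Acox2, known from bile acid synthesis, was above the level in replicate 4 alone (6.08, 6.37 and 6.13), and Acoxl (5.71, 5.60 and 6.01) on no array.

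Thioesterases, which release free fatty acids from acyl-CoA, were called in 6 of 13 cases. Of the member lists this share (46.2%) was closest to that of all genes (37.3%), followed by the lists at 50%. Acot13 had signals of 10.30, 9.45 and 8.76, a height of 3.16 (SE 0.36) (limma adjusted p = 0.000105), and exceeded the mean of the other arrays by 1.19 on replicate 2. Acot9, a mitochondrial form, stood at 7.57, 8.54 and 8.18, lowest in replicate 2, and Acot12, which acts on acetyl-CoA in the cytosol, at 7.95, 8.68 and 7.50, highest in replicate 4. Acot2, the mitochondrial form, had signals of 7.61, 7.58 and 7.24. It is 1 of 6 neighbouring genes, Acot2, Acot1, Acot4, Acot3, Acot5 and Acot6, and was the only one of them called. Acot5 (4.02, 4.01 and 4.06) was under the level on every array, and so was Acot1, the cytosolic twin of Acot2 (5.18, 4.78 and 5.03). Acot4 was above the level in replicate 2 alone (6.88, 6.06 and 5.73), Acot3 (6.23 ± 0.23) in replicates 2 and 4, and Acot6 (6.36 ± 0.15) likewise. The cluster's genes are similar in sequence, and binding of a relative's transcript was not tested. Acot7 (7.18 ± 0.24) was called, and so was the peroxisomal form Acot8 (6.95, 7.60 and 6.66, limma adjusted p = 0.0211), which did not pass when replicate 2 or 4 was left out (limma adjusted p = 0.0811 and 0.14). Acot10 (5.55 ± 0.27) and Acot11 (6.27 ± 0.11) were under the level on every array.

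Peroxins were called in 7 of 14 measured cases (50%, beside 37.3% of all genes). Both measured docking factors, which receive the loaded import receptor at the membrane, were above background: Pex13 at 9.07, 8.53 and 8.60 with a height of 2.39 (limma adjusted p = 8.83e-05) and Pex14 at 6.90, 7.01 and 6.73 (limma adjusted p = 0.0234). Pex14 did not pass when replicate 2 or replicate 4 was left out (limma adjusted p = 0.115 and 0.134). Of the membrane assembly factors, Pex19 stood at 7.88, 7.65 and 7.17 and Pex16 at 7.19, 7.35 and 6.89, both called, while Pex3 (7.01, 6.95 and 6.02, limma adjusted p = 0.273) was under the level in replicate 5 and passed without it (limma adjusted p = 0.00798). Of the import receptors, Pex7 was called (7.59, 7.41 and 7.17), whereas Pex5, the main receptor, lay around the level (6.34, 6.07 and 6.65, limma adjusted p = 0.953) and its relative Pex5l under it (5.66 ± 0.17). Pex6, a motor that recycles the receptor, was called (7.27, 7.31 and 7.003), and its membrane anchor Pex26 (6.26 ± 0.15) was not. The ubiquitin ligase subunits Pex2 (5.94, 6.55 and 5.44) and Pex10 (5.31, 5.17 and 5.31) were not called by limma, 0 of 2, and 0 of 2 had an unadjusted p under 0.05. In the division family Pex11g was called (6.85, 6.95 and 7.12, limma adjusted p = 0.00809, and 0.0556 without replicate 4), and Pex11a (6.19 ± 0.09) was not. With the 99th percentile level only Pex13 of the peroxins was called, 1 of 14 (7.14%), beside 16.6% of all genes.

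**Figure D2:**
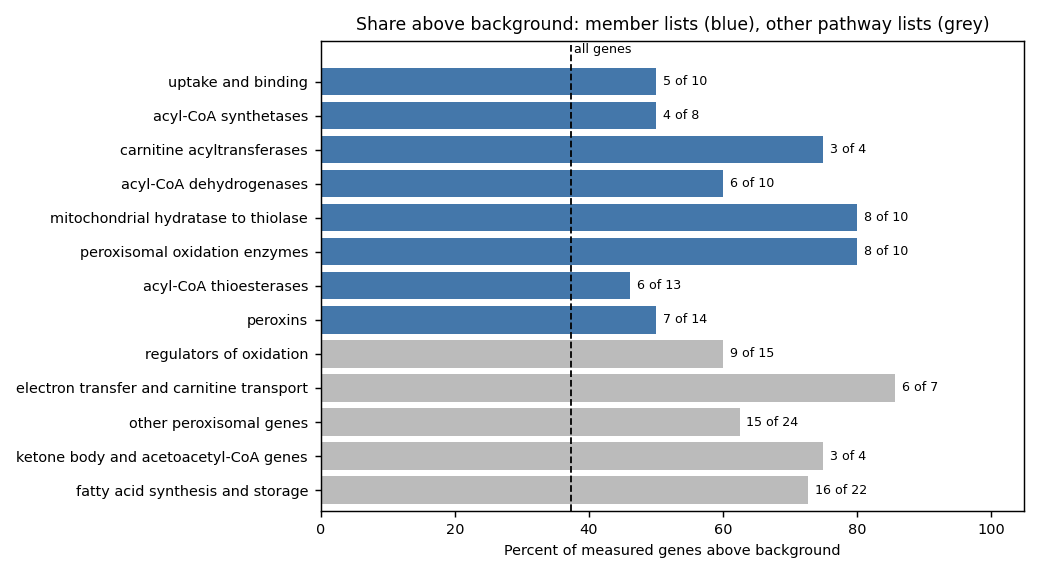
Bars give the percent of measured genes called above background in each role list of members (blue) and in lists of other genes of lipid metabolism (grey), with counts beside them; the dashed line is the share over all genes, 37.3%. The thioesterase bar, 6 of 13, lies nearest the line, and electron transfer and carnitine transport, 6 of 7, farthest.

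Genes of lipid metabolism and peroxisomes outside the rule, below named other pathway genes, were called in 49 of 72 cases (68.1%, beside 37.3% of all genes). Of these 72, 22 were the list of fatty acid synthesis, uptake and storage. Electron transfer from the dehydrogenases and carnitine transport had 6 of 7, with Etfa at 11.86, 11.92 and 11.55, Etfb at 10.59, 10.93 and 10.36 and Etfdh at 10.33, 10.13 and 9.42, the 3 parts of the chain that passes electrons to ubiquinone, and Slc22a21 (5.56 ± 0.27) not called. Slc25a20, the carrier that moves acylcarnitine across the inner membrane, lay close to the threshold (6.94, 6.35 and 7.17, limma adjusted p = 0.0491). Other peroxisomal genes had 15 of 24, with Phyh, which starts the breakdown of phytanic acid, at 11.05, 11.47 and 10.83, catalase (Cat) at 10.24, 10.31 and 9.71 and Dao at 9.73, 10.06 and 8.64, and Abcd2 (5.49 ± 0.36) under the level. Of the regulators 9 of 15 were called. Ppargc1a, a coactivator of oxidative genes, stood at 10.03, 10.76 and 10.23, and the kinase subunits Prkaa1 and Prkaa2 at 8.91, 9.33 and 8.61 and 9.16, 9.41 and 7.93. Ppara, the gene of PPAR alpha, was above the level in replicates 2 and 4 and was not called (6.59, 7.06 and 6.28, limma adjusted p = 0.206), and Ppargc1b (6.23 ± 0.35) was not called either. Of 4 measured ketone body genes 3 were called, Oxct1 (11.19 ± 0.15), Acat1 (9.42 ± 0.21) and Bdh2 (8.82 ± 0.55), and Bdh1 (6.25 ± 0.27) was not. Fatty acid synthesis, uptake and storage had 16 of 22, with Slc27a2, also a proximal tubule gene, at 12.41, 12.12 and 12.21, Lpl at 8.58 ± 0.36 and Plin2 at 8.46 ± 0.35, and Lipe (5.84 ± 0.21) under the level. This last count was 7 of 22 (31.8%) without replicate 2, close to the 30.3% of all genes called at that setting.

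The spread between arrays is given here as a description. Among the 47 called members the median SD was 0.34 log2 units, beside 0.27 over all called genes, and 11 of them (23.4%) ranged over more than 1 log2 unit, beside 13.7% of all called genes. Replicate 5 was lowest in 30 of the 47 (63.8%, beside 52.8% of all called genes) and highest in 6 (12.8%, beside 20.8%). The median of its difference from the mean of the other arrays was -0.34 over called members and -0.19 over all called genes. After quantile normalization these medians were -0.21 and -0.0367, and over all 79 members, called or not, the median as deposited was -0.19, beside 0.0381 over all 19938 genes. Replicate 2 was highest in 21 (44.7%, beside 43.8%) and replicate 4 in 20 (42.6%, beside 35.4%), and the median differences of these arrays were 0.14 and 0.12. Replicate 4 was lowest in 10 and replicate 2 in 7 (beside 26.1% and 21.1% of all called genes). With 1 array on one side these differences have no test.

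Gene lists moved unevenly between arrays. In replicates 2, 4 and 5 the median differences were 0.15, 0.16 and -0.40 for the later mitochondrial steps, 0.30, 0.05 and -0.32 for the dehydrogenases and 0.14, 0.09 and -0.37 for the carnitine acyltransferases. Thioesterases had 0.03, 0.41 and -0.48, synthetases -0.10, 0.50 and -0.33, peroxins 0.11, 0.12 and -0.28, and carriers and binding proteins 0.52, -0.15 and -0.44. Replicate 5 was the lowest array for each of these lists. Peroxisomal oxidation enzymes were the exception, with 0.08, -0.07 and -0.06. Called proximal tubule markers had 0.26, 0.36 and -0.61, thick ascending limb and distal markers 0.02, 0.52 and -0.38, and endothelial markers 0.89, -0.50 and -0.60. Renin cell markers had 0.33, -0.22 and -0.11, and smooth muscle and pericyte markers 0.19, -0.13 and -0.04. Replicate 5 was thus lowest for both tubule lists, for endothelial markers and for 7 of the 8 member lists, while replicate 4 was lowest for renin cell and mural markers, and the part of these cells in the members' values was not tested.

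**Figure D3:**
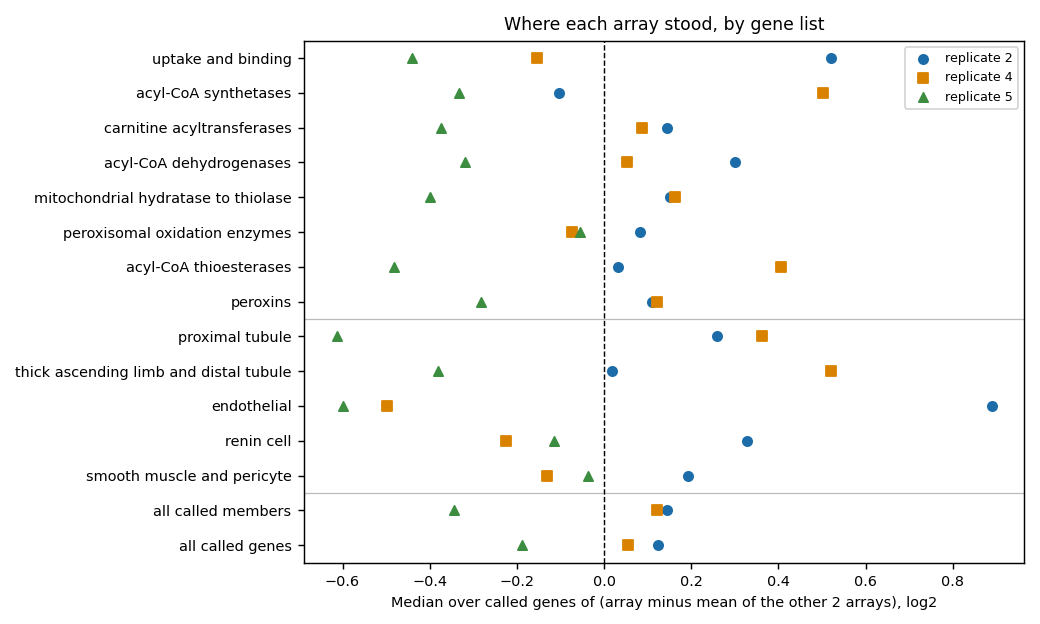
For each gene list the points give the median, over its called genes, of the log2 signal on 1 array minus the mean of the other 2, for replicate 2 (circles), 4 (squares) and 5 (triangles). The upper block holds the member lists, the middle block cell type markers and the lower block all called members and all called genes; replicate 5 lies at -0.34 for called members and at -0.61 for proximal tubule markers.

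Single members also followed different arrays. In replicate 2 the called members furthest above the others were Acot13 (1.19), Echs1 (1.03), Eci3 (0.89), Eci2 (0.71) and Hadh (0.70), and those furthest below were Acsl4 (-0.81), Acot9 (-0.79), Acsl5 (-0.33), Eci1 (-0.28) and Acad8 (-0.27). Replicate 4 was furthest above in Hadhb (0.98), Acot12 (0.95), Decr2 (0.89), Ehhadh (0.87) and Fabp3 (0.86), and furthest below in Eci3 (-0.88), Fabp4 (-0.59), Fabp5 (-0.51), Acadl (-0.39) and Decr1 (-0.34). Replicate 5 was furthest below in Eci2 (-1.27), Fabp3 (-1.23), Acot13 (-1.11), Echs1 (-1.07) and Acadsb (-0.93), and its furthest above were small, Acsl4 (0.41), Acaa1b (0.28), Pex11g (0.23), Ech1 (0.16) and Acot9 (0.13). Of the peroxins, Pex11g alone was among these members. Eci3 and Acsm3 had the array order 2, 5, 4, the order also of Slc7a13 (11.49, 9.78 and 10.68), a transporter of the late proximal tubule. Only 2 of the 17 proximal tubule markers had that order, and 13 were lowest in replicate 5. The called members Acadl, Crat, Decr1, Fabp4, Fabp5 and Pex13 had the order 2, 5, 4 as well. Hadhb, Ehhadh, Cpt1a and Acot12 had the order 4, 2, 5, shared with the tubule markers Pck1 (8.49, 8.93 and 7.59) and Slc12a1 (10.47, 11.24 and 9.61). The called members Acaa2, Acad8, Acadsb, Acsm1, Acsm2, Acot8, Decr2, Fabp3, Fabp7, Pex6, Pex14 and Pex16 had the order 4, 2, 5 as well. Among markers it was found in 8 of 17 of the proximal tubule and in 5 of 11 of the thick ascending limb and distal tubule. The rest of these markers had other orders. The share of all called genes with either order was not counted. These matches rest on 3 arrays, were picked after the values were seen, and were not tested.

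**Figure D4:**
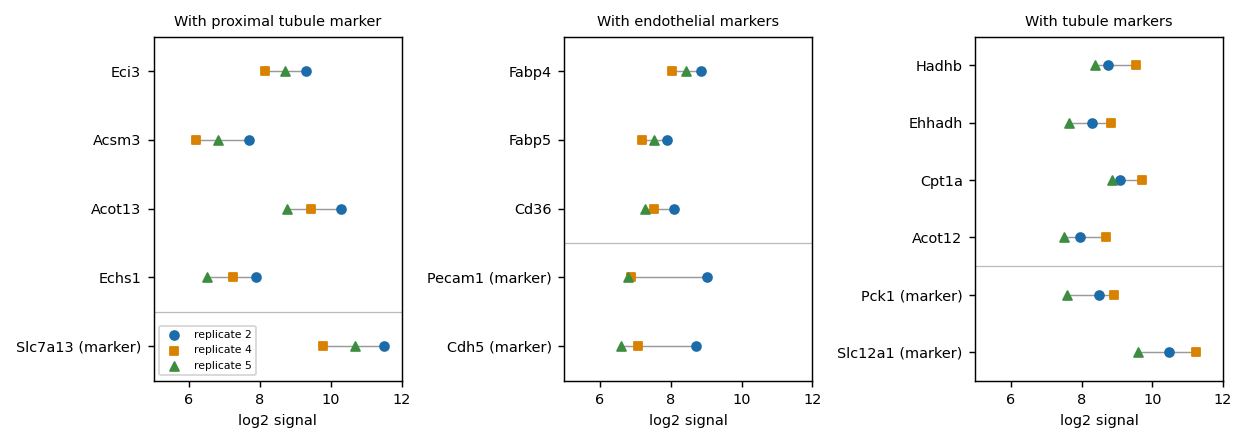
Log2 signals of selected members (above the grey line of each panel) and cell type markers (below it) in replicate 2 (circles), 4 (squares) and 5 (triangles), with a thin line over each gene's range. Replicate 2 is the rightmost point of each gene in the left and middle panels, and replicate 4 of each gene in the right panel. Full orders differ within the left and middle panels. Eci3, Acsm3, Slc7a13, Fabp4 and Fabp5 had the order 2, 5, 4, and Acot13, Echs1, Cd36, Pecam1 and Cdh5 the order 2, 4, 5.

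Because many of these genes are known PPAR alpha targets, the RefSeq promoter windows of GRCm38.p6, 250 bases before to 50 after each annotated start, were searched on both strands for the direct repeat that PPAR binds with its partner RXR, written as AGGNCA, any base, AGGNCA, and for AGGTCA, its core element. Where an N of the repeat is a T, the shorter element lies inside it. Windows were found for 66 of the 79 members. The long repeat was in 1 member, Fabp1 (1.52%, beside 0.41% of genes on the array with a window). It was in 0 of 39 called members, beside 15 of 6012 called genes with a window (0.25%). With a repeat so rare, these counts say little about the members. AGGTCA was in 16 of 66 members (24.2%) and in 9 of 39 called ones (23.1%), beside 16.3% of genes on the array and 15.4% of all called genes with a window. A match is a description of the letters and no match says only that they are not in this window. Fabp1 is thus the member with the full repeat and had no signal above background. It is shown first, followed by 6 called members with the shorter element; capitals mark the motif, which reads TGACCT where it lies on the opposite strand.
Fabp1, chr6:71199782-71199854, plus strand: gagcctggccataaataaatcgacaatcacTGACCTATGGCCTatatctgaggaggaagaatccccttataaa
Acadm, chr3:153944857-153944893, minus strand: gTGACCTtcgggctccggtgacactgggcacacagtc
Acadvl, chr11:70015480-70015545, minus strand: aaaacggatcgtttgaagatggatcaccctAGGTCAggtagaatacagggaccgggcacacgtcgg
Echs1, chr7:140116469-140116534, minus strand: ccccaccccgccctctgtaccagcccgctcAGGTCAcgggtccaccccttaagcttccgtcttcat
Cpt1a, chr19:3323177-3323242, plus strand: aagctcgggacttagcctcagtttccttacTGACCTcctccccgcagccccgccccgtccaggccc
Acot12, chr13:91741381-91741446, plus strand: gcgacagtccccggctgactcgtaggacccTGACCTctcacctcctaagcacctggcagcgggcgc
Fabp7, chr10:57784722-57784787, plus strand: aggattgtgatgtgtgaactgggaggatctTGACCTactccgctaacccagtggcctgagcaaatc
The Fabp1 repeat spans bases 67 to 55 before the start. The elements of Acadvl, Echs1, Cpt1a and Acot12 begin 87, 83, 94 and 110 bases before it, that of Fabp7 171 and that of Acadm 249. Of the 6 called members shown, Cpt1a, Acot12 and Fabp7 were highest in replicate 4, and Acadm, Acadvl and Echs1 in replicate 2. All 6 were lowest in replicate 5, as were 63.8% of the called members. Cd36, Acsm1 and Pex11g, the other called members with the shorter element, are not shown. Of these, Cd36 and Acsm1 were also lowest in replicate 5. Pex11g (6.85, 6.95 and 7.12) was instead lowest in replicate 2 and highest in 5. Any link between the element and the signals was not tested.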

How the data were processed

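The deposited values were 1 log2 signal per probe set and array. Per the submitters' processing notes Affymetrix Expression Console was used, with version, summary method and normalization not given in the sources used here, and per the labels' protocols a NuGEN kit amplified the RNA. The log2 scale was inferred from the range, 2.21 to 13.96, and no source states the log base. Array medians were 6.09, 6.11 and 6.21. Probe sets were named from the platform table. Of 35557, 21789 had 1 symbol, 1621 several (3 of them with a member) and 12147 were not listed, and 21698 of the 21789 matched a RefSeq table of GRCm38.p6 with 0 symbols changed. The brightest probe set stood for a gene. limma 3.58.1 (R 4.3.3) fitted the intercept of signal minus background with eBayes and trend, tested one-sided and adjusted over 19938 genes, and was tested on simulated data. Alternatives were other background levels, the mean of probe sets, no trend, quantile normalization, a filter at the median gene and leaving out each array. The number of arrays, 3, limits the precision. Members and gene lists were chosen with earlier results of these data known. Named genes follow a rule: every member may be named, with up to 4 called members and the lowest per list given by array, the 5 furthest above and below per array, those whose call changed when 1 array was left out, and of other lists up to 3 called genes and the lowest. Other genes named outside it (Slc25a20, Ppara, Cidec, Pecam1, Cdh5, Ehd3, Tek, Slc7a13, Pck1 and Slc12a1) were chosen after their values were seen. Python 3.11.15, pandas 2.3.3 and numpy 2.4.6 were used. Protein features were planned and not analysed here.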

Additional observations from a re-analysis of the deposited data

How the results depend on the processing

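The background level moved many of the counts, and leaving out replicate 2 moved that of fatty acid synthesis and storage genes from 16 to 7. At the 99th percentile level 23 members, 3303 genes in all and 24 other pathway genes were called by limma (16.6% of all genes), with 2 of 13 thioesterases (15.4%), 5 of 10 later mitochondrial steps (50%), 1 of 14 peroxins (7.14%), 3 of 10 peroxisomal enzymes (30%) and 3 of 10 carriers and binding proteins (30%). With the vomeronasal level 13410 genes were called (67.3%), 7 of 8 synthetases, 10 of 13 thioesterases and 12 of 14 peroxins. With the keratin-associated level, taken from 44 genes, 3 members, 709 genes in all and 7 other pathway genes were called, 1 dehydrogenase, 1 synthetase and 1 later mitochondrial step. By limma it left 0 calls among thioesterases, carnitine acyltransferases, peroxins, peroxisomal enzymes and carriers and binding proteins, where 1, 0, 0, 0 and 0 had an unadjusted p under 0.05. Mean heights of called members that fell under the level at the 99th percentile were Acaa1b (-0.20), Acad9 (-0.0178), Acot7 (-0.0223), Acot8 (-0.14), Pex11g (-0.23), Pex14 (-0.33), Pex16 (-0.0591) and Pex6 (-0.0129). Under the keratin-associated level they were Acaa1a (-1.16), Acaa1b (-1.66), Acad8 (-0.86), Acad9 (-1.48), Acadsb (-0.54), Acot12 (-0.63), Acot2 (-1.19), Acot7 (-1.49), Acot8 (-1.60), Acot9 (-0.57), Acox3 (-1.05), Acsl4 (-0.28), Acsm1 (-0.63), Cd36 (-1.03), Cpt2 (-1.02), Crat (-0.48), Decr2 (-0.65), Ech1 (-0.18), Echdc2 (-1.08), Echs1 (-1.46), Eci1 (-1.05), Eci2 (-0.84), Ehhadh (-0.41), Fabp3 (-0.19), Fabp4 (-0.22), Fabp5 (-1.13), Pex11g (-1.70), Pex14 (-1.79), Pex16 (-1.52), Pex19 (-1.10), Pex6 (-1.48) and Pex7 (-1.28). The 99th percentile is higher by construction, and the keratin-associated level was measured at 8.41, 8.44 and 9.15 in replicates 2, 4 and 5. The member count ran from 43 to 51 when 1 array was left out, and was 46 without the trend and 47 with the mean of probe sets, quantile normalization or the filter. Of the 47 called members 42 kept their call with each array left out. The median difference of replicate 5 over called members was -0.21 after quantile normalization and -0.19 over all 79 members. No paired analysis was possible because the series has 1 group.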
